A study of Mus musculus with 6 samples.

Results

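The contractile genes of smooth muscle were examined in colon mucosa of mice with and without microRNA-21. They comprised 10 genes, chosen by name with earlier results of these data known: Acta2, Actg2, Myh11, Tagln, Cnn1, Des, Mylk, Lmod1, Csrp1 and Smtn. All probes whose symbol in the deposited probe table was one of these names were taken, which gave 10 of the 18138 gene symbols and 16 of the 25697 probes on the array: 4 for Acta2, 3 for Smtn, 2 for Mylk and 1 for each of the other 7. Total RNA was measured on 1-colour (Cy3) bead arrays, with 1 array per sample. The 3 wild type (WT) samples came from C57BL/6 mice from Taconic. The 3 miR-21 KO samples came from microRNA-21 knockout mice on a C57BL/6 background, which another laboratory had provided. Neither group was treated, and the labels give no age, no sex and no number of animals per sample. Genotype and the source of the mice cannot be told apart in any comparison, and since nothing says that replicates were separate animals, the p-values measure only the spread between these samples.

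Smooth muscle contracts when calcium-activated myosin light chain kinase phosphorylates myosin II, which then pulls on actin filaments anchored in dense bodies and held together by desmin. In the colon wall smooth muscle forms the muscularis mucosae under the crypts, the thicker muscle coat outside the submucosa and the media of blood vessels, so RNA from a mucosal sample carries contractile transcripts from whichever of these layers it contains. Most contractile genes are activated by serum response factor (Srf) with its cofactor myocardin (Myocd), through a short sequence called the CArG box. MicroRNA-21 is itself abundant in vascular smooth muscle.

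The deleted RNA is shown first because it defines the comparison. The mature 5p strand, with its seed (bases 2 to 8) in capitals, is from RefSeq (GRCm38.p6, chr11:86584120-86584141, minus strand).

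mmu-miR-21a-5p: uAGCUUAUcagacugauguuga

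The array has no probe for the microRNA. Of 5 probes for Vmp1, the gene that overlaps it, 2 were detected in WT alone (3 arrays against 0) and KO lay lower by factors of at least 3.15 and 3.31 (limma adjusted p = 0.000209 and 0.000228). A further probe was 3.68 log2 units higher in KO (adjusted p = 6.44e-06), the main probe was 0.55 lower (-0.55, adjusted p = 0.0322) and the last did not pass (-0.27, adjusted p = 0.336). Since the position of these probes relative to the deletion is not known here, they are no check of the labels.

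Promoters were examined for the Srf motif in the RefSeq windows from 250 bases before to 50 bases after an annotated start. Windows were found for 7 of the 10 genes, 8 windows in all, of 300 bases each. An exact CArG box was in 0 of the 8, and is in 1.63 percent of all 32851 windows in the table. The motif with up to 1 mismatch was in the windows of Acta2 and Lmod1, against 21.1 percent of all windows. The motif reads the same on both strands, so a match on one is a match on the other. The windows of Cnn1, Csrp1, Des, Mylk and Smtn held none, which says only that these letters are not in those windows. The Acta2 and Lmod1 windows are printed because they hold the matches, with the matches in capitals.

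Acta2, chr19:34255324-34255623, minus strand: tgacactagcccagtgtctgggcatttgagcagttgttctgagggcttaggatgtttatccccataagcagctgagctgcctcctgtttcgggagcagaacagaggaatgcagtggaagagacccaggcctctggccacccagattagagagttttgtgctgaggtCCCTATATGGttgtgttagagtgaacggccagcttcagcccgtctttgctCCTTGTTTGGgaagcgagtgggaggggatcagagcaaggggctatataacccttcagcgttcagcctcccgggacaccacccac

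Lmod1, chr1:135324563-135324862, plus strand: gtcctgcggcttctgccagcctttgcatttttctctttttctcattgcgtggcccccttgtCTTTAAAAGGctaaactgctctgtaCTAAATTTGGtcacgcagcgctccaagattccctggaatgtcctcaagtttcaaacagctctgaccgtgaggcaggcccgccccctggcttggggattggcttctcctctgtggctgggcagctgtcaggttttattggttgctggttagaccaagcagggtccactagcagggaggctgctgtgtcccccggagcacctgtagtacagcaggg

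In Acta2 the matches begin 84 and 34 bases before the start, and in Lmod1 they begin 189 and 164 bases before it. Each of the 4 matches has 1 mismatch.

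Epithelial markers were examined on each array. They show that epithelium was present, but a piece of the whole colon wall would hold them too, so they do not check the mucosa label. The 11 tested colon epithelium genes had mean levels of 10.79 to 10.82 (log2) on the WT arrays and 10.75 to 10.82 on the KO arrays, and Krt8, Lgals4 and Tff3, products of the intestinal epithelium, were detected on all 6 arrays. All 16 probes of the contractile genes were detected on all 6 arrays too, and all were tested. The beads of a probe, 18 to 54 per array, gave a standard error of 1.94 to 8.21 percent of the intensity, with a median of 3.52 percent. Levels are log2 of background-corrected, quantile-normalized intensity, and where a gene has several probes, the one with the highest mean over all arrays stands for it and is called its main probe.

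One pattern ran through almost the whole group, array by array. After subtracting each gene's own mean, the average of the 10 genes was -0.83, 0.077 and -0.29 (log2) for WT replicates 1, 2 and 3. For KO replicates 1, 2 and 3 it was 0.47, 0.55 and 0.020. WT replicate 1 was the lowest array for 9 of the 10 genes, the exception being Lmod1. WT replicate 2 was the highest WT array for 9 genes, all but Cnn1. KO replicate 3 was the lowest KO array for all 10. WT replicate 2 lay above KO replicate 3 for 6 of the 10 genes, so most of the overlap between the groups came from this pair of arrays. The range within WT was larger than the difference between the groups for 8 genes, and the range within KO was so for 3.

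**Figure D1:**
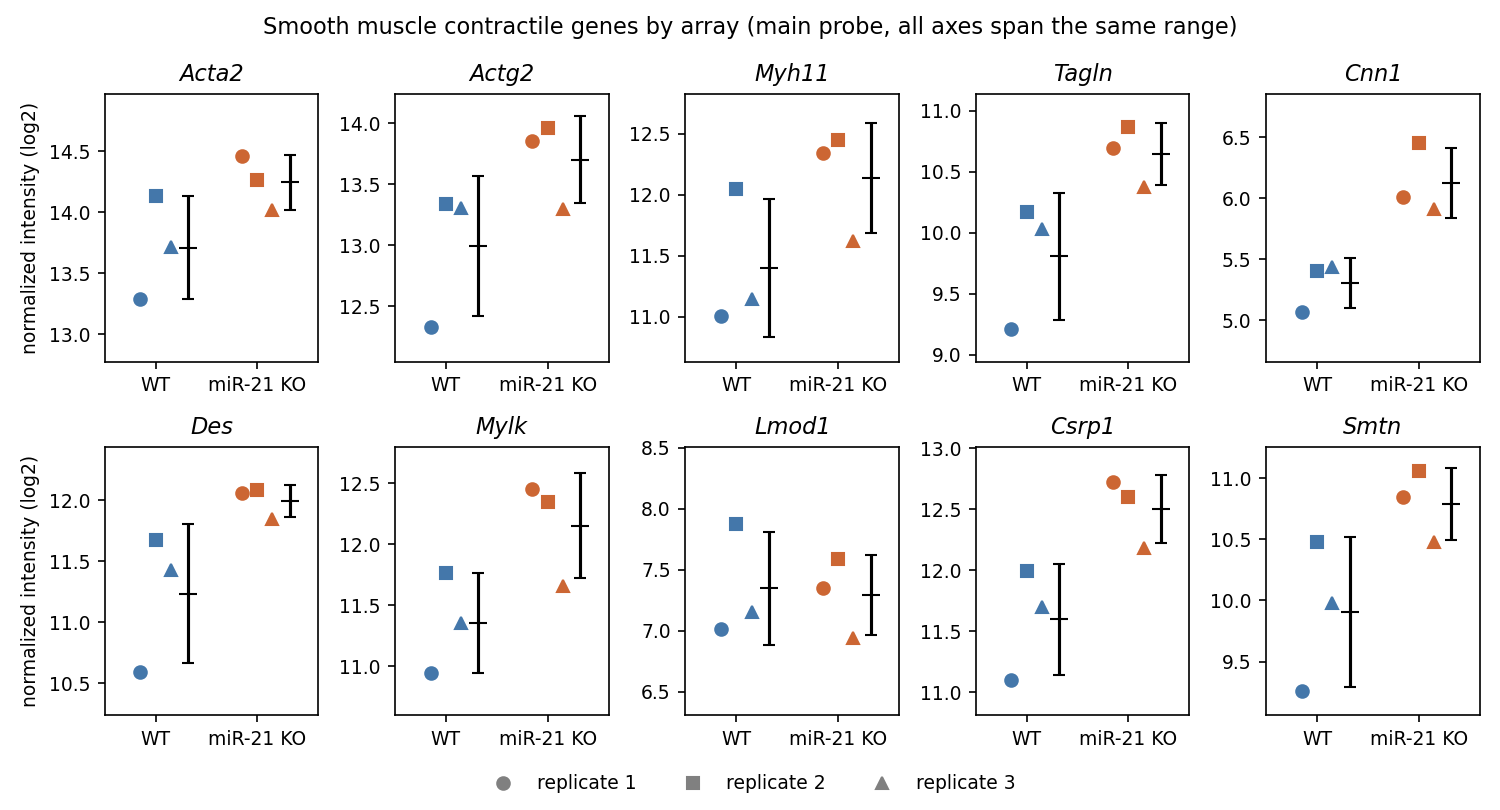
Normalized level (log2 intensity, vertical axis) of each contractile gene on the 6 arrays, WT in blue and miR-21 KO in orange, with one symbol shape per replicate number and black bars for mean and SD (n = 3 per group). WT replicate 1 is lowest for 9 genes and WT replicate 2 lies above KO replicate 3 for 6.

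Between the groups, 9 of the 10 genes had higher means in KO, by log2 differences of 0.54 to 0.90, and Lmod1 did not (-0.06). The median over the 10 was 0.78, against 0.03 over the main probes of all 10348 tested genes. By limma with Benjamini-Hochberg adjustment over all 13737 tested probes, 2 of the 10 rose, Cnn1 and Csrp1, and 0 fell. Over all tested genes 8.04 percent were called higher and 7.63 percent lower, and over all tested probes 7.53 and 7.55 percent, where the 10 genes had 2 of 16 higher and 0 lower. Without adjustment 9 of the 10 had p under 0.05, all higher in KO, as had 17.8 percent of all tested genes in that direction. All 3 KO arrays lay above all 3 WT arrays for 4 genes, Tagln, Cnn1, Des and Csrp1, as they did for 20.2 percent of all tested genes, and for 5 of the 16 probes, against 19.4 percent of all probes. The reverse order was seen for 0 of the 10 and for 17.3 percent of all genes. Over the whole array 1034 probes were called higher and 1037 lower, or 193 and 343 when arrays were scaled to a common median instead of quantile-normalized. In a sample of whole tissue, more smooth muscle cells and more contractile RNA per cell cannot be told apart. Both calls were lost without WT replicate 1 or KO replicate 2, and that of Csrp1 also without WT replicate 3 or KO replicate 1.

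**Figure D2:**
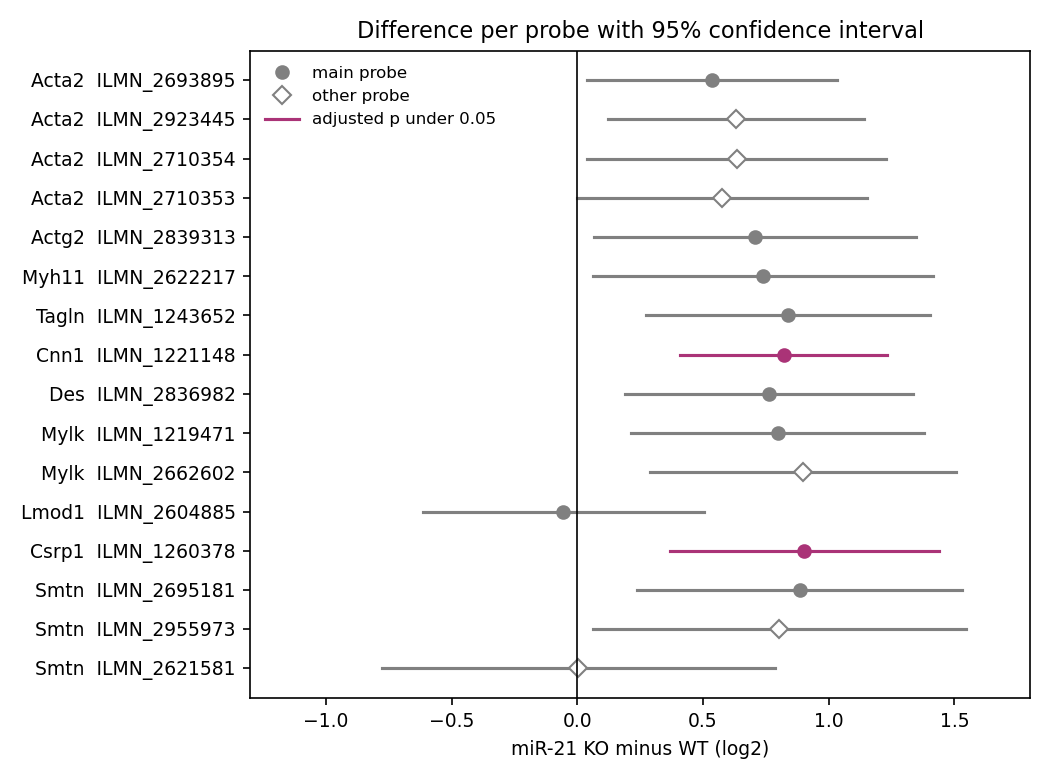
Difference between miR-21 KO and WT (log2, horizontal axis) for each of the 16 probes, with its 95 percent confidence interval from the limma fit, unadjusted for the number of probes (n = 3 per group). Cnn1 and Csrp1 passed the adjusted threshold, and the Lmod1 probe and 1 of the 3 Smtn probes sit near 0.

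Actin and myosin make up the contractile filaments. Acta2 encodes the alpha actin of smooth muscle, which vascular muscle and myofibroblasts express strongly. Its main probe read 13.29, 14.13 and 13.71 in WT and 14.46, 14.26 and 14.02 in KO, here and in the sentences that follow in the order of replicates 1, 2 and 3. WT replicate 2 stood between KO replicates 2 and 3, so the groups overlapped. The difference was 0.54 ± 0.22 (SE, n = 3 per group; adjusted p = 0.127), or 0.33 with median scaling. The other 3 Acta2 probes gave 0.63 ± 0.23, 0.63 ± 0.26 and 0.57 ± 0.26, none of which passed (adjusted p = 0.0892, 0.132 and 0.155), and on 1 of them, ILMN_2923445, the groups did not overlap.

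Actg2 encodes the gamma actin of enteric smooth muscle. It read 12.33, 13.34 and 13.31 in WT and 13.85, 13.96 and 13.29 in KO. KO replicate 3 was level with WT replicates 2 and 3, and WT replicate 1 was well below every other array. The difference of 0.71 ± 0.28 did not pass (adjusted p = 0.121). Probes of related actins could share target sequence, and probe sequences were not used here.

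Myh11, the smooth muscle myosin heavy chain and the most specific marker of the mature cell, read 11.01, 12.04 and 11.14 in WT and 12.34, 12.45 and 11.62 in KO. Here WT replicate 2 was clearly above KO replicate 3, and WT replicate 3 was only a little above WT replicate 1. The difference was 0.74 ± 0.30 (adjusted p = 0.124). Mylk encodes the kinase that starts contraction. Its main probe read 10.94, 11.76 and 11.36 in WT and 12.45, 12.34 and 11.65 in KO, a difference of 0.80 ± 0.26 (adjusted p = 0.0674). The second Mylk probe gave 0.90 ± 0.27 (adjusted p = 0.0536). On both probes KO replicate 3 lay below WT replicate 2, and the other 2 KO arrays lay above every WT array.

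Of the proteins that bind or regulate the filaments, calponin (Cnn1), an actin-binding inhibitor of myosin ATPase in differentiated smooth muscle, read 5.07, 5.41 and 5.43 in WT and 6.01, 6.45 and 5.91 in KO. The groups were clearly apart on this scale, and the WT arrays were closer together than for any other of the 10 genes. Cnn1 was 1.77-fold higher in KO (0.82 ± 0.18, adjusted p = 0.0208). Its signal was low: the intensity before normalization was 119.7, 135.6 and 106.8 in WT and 156.7, 182 and 124.2 in KO, where the median of undetected probes was 91.3 to 104.1. Before normalization the value of KO replicate 3 was thus below that of WT replicate 2, and the ratio of the group means was 1.28. The log2 difference of Cnn1 was 0.32 with no background correction, 0.50 with an offset of 50 and 1.17 with an offset of 1.

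Csrp1, a LIM domain protein of actin bundles, read 11.10, 11.99 and 11.70 in WT and 12.72, 12.60 and 12.18 in KO. Every KO array was above every WT array, with KO replicate 3 only a little above WT replicate 2. Csrp1 was 1.87-fold higher (0.90 ± 0.24, adjusted p = 0.0350). Transgelin (Tagln), an actin-bundling protein and an early marker of the lineage, read 9.21, 10.17 and 10.03 in WT and 10.69, 10.87 and 10.37 in KO. The groups did not overlap, and the difference of 0.84 ± 0.25 just missed the threshold (adjusted p = 0.0527).

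Smoothelin (Smtn), found in contractile and not in proliferating smooth muscle, had 3 probes. The main probe read 9.26, 10.48 and 9.98 in WT and 10.84, 11.06 and 10.48 in KO, a difference of 0.89 ± 0.29 (adjusted p = 0.0674). WT replicate 2 and KO replicate 3 were level. The second probe, ILMN_2955973, gave 0.80 ± 0.33 (adjusted p = 0.126). The third and dimmest, ILMN_2621581, read 5.65, 6.79 and 6.41 in WT and 7.02, 5.92 and 5.93 in KO. On this probe KO replicate 1 was the highest array and the other KO arrays were among the lowest, which was not so for the main probe, and the difference was 0.00 ± 0.35 (adjusted p = 0.996). The mean of the 3 probes gave 0.56.

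Desmin (Des), the intermediate filament protein of muscle, read 10.59, 11.68 and 11.43 in WT and 12.06, 12.09 and 11.84 in KO. The KO arrays were within 0.24 of one another, the WT arrays spanned 1.09, and the groups did not overlap. The difference was 0.76 ± 0.25 (adjusted p = 0.0726).

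Lmod1, leiomodin, nucleates actin filaments in smooth muscle. It read 7.01, 7.87 and 7.15 in WT and 7.35, 7.58 and 6.94 in KO. WT replicate 2 was its highest array and KO replicate 3 its lowest. The difference was -0.06 ± 0.25 (adjusted p = 0.903), with a 95 percent interval of -0.61 to 0.50. The values of the other 9 main probes lie above this interval, but their own intervals all overlap it. Those of Acta2 and Cnn1 were 0.04 to 1.03 and 0.41 to 1.23. The dimmest Smtn probe, at 0.00, lies inside the Lmod1 interval. Within each group Lmod1 followed the arrays as the others did: WT replicate 2 was 0.79 above the mean of the other WT arrays, where the median of the 10 genes was 0.62, and KO replicate 3 differed by -0.53 from the other KO arrays, where the median was -0.48. The means of the 2 groups differed by less than the spread within either.

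This was also seen with each gene set against the other 9 on the same array. The centred level of Lmod1 minus the mean of the others was 0.58, 0.53 and 0.13 in WT and -0.48, -0.32 and -0.44 in KO. For the remaining genes these deviations were at most 0.43 in size. Their change from WT to KO ran from -0.17 for Acta2 to 0.23 for Csrp1, against -0.83 for Lmod1. These are descriptions of 1 probe per gene and were not tested.

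**Figure D3:**
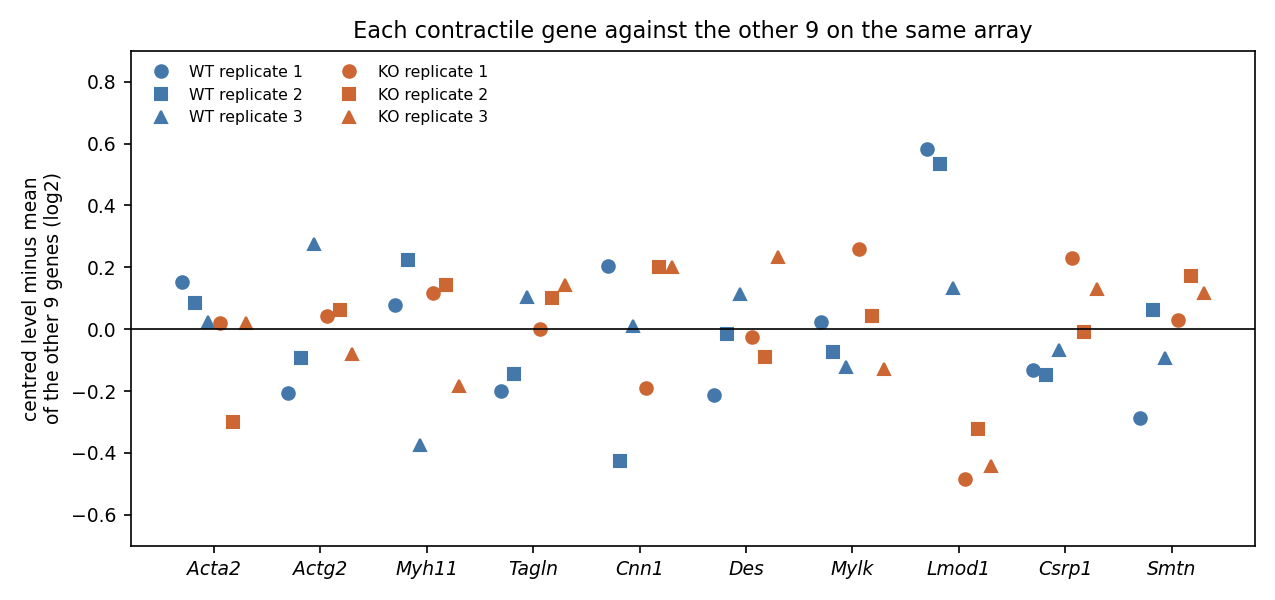
Centred level of each contractile gene minus the mean of the other 9 genes on the same array (log2, vertical axis), WT in blue and miR-21 KO in orange. The 3 WT values of Lmod1 lie between 0.13 and 0.58 and its KO values between -0.48 and -0.32, while other genes scatter within 0.43 of 0.

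The size of the difference depended on single arrays. Leaving out WT replicate 1 gave the smallest difference for 9 of the 10 genes: 0.33 for Acta2, 0.38 for Actg2, 0.44 for Des, 0.53 for Myh11, 0.54 for Tagln, 0.56 for Smtn, 0.58 for Mylk and 0.65 for Csrp1, with Lmod1 at -0.22. The exception was Cnn1, whose smallest value was 0.65, without KO replicate 2. Leaving out WT replicate 2 gave 1.17 for Smtn, 1.11 for Csrp1 and 1.07 for Myh11, and 8 genes passed, all but Actg2 and Lmod1. Leaving out KO replicate 3 gave 3 passing genes, Cnn1, Mylk and Csrp1. Of the 9 genes with higher means in KO, all kept that direction in each of these fits.

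**Figure D4:**
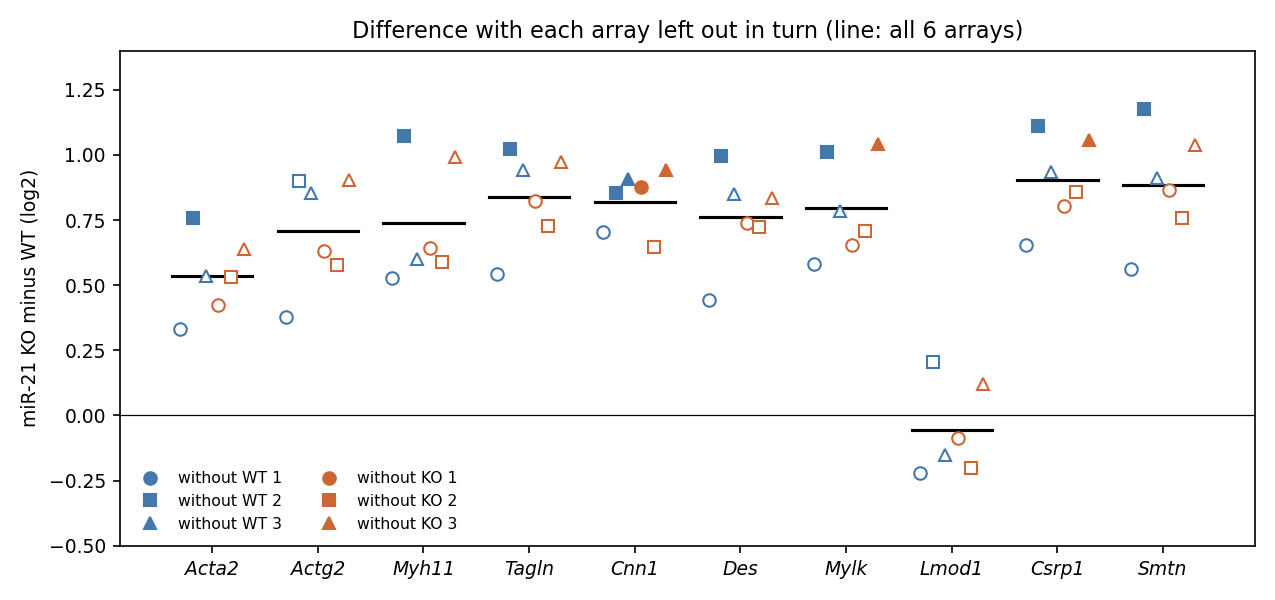
Difference between miR-21 KO and WT (log2, vertical axis) for each contractile gene with 1 array left out in turn. Black lines give the value from all 6 arrays, filled symbols mark an adjusted p under 0.05, and the fits without WT replicate 2 have the most filled symbols.

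Other genes of the contractile apparatus, from a list of 29, showed a smaller shift. Of 23 tested, 5 rose and 0 fell, with a median difference of 0.49. Flna (filamin A), which crosslinks actin, was 2.28-fold higher (1.19 ± 0.22, adjusted p = 0.0121). The integrin Itga5 was 1.98-fold higher (0.99 ± 0.28), the Srf and focal adhesion cofactor Tgfb1i1 1.78-fold (0.83 ± 0.18), the Z-disc and stress fibre protein Pdlim7 1.74-fold (0.80 ± 0.23) and the small heat shock protein Hspb7, detected on 2 of 3 WT arrays, 1.68-fold (0.75 ± 0.21). Second probes of Tgfb1i1 and Itga5 did not pass (0.66 and 0.48). The brightest gene, the myosin light chain Myl6, which many other cell types also express, had -0.23 ± 0.14 (adjusted p = 0.263).

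Receptors, channels and the nitric oxide and cGMP pathway that relaxes smooth muscle did not pass for any gene. Of 23 tested, 0 were called by limma, 6 had an unadjusted p under 0.05, and the median difference was 0.23. The brightest, the caveolar protein Cav1, had 0.51 ± 0.20 (adjusted p = 0.119). Among the regulators of the lineage 1 of 11 rose, Nkx2-3, a homeobox gene of gut mesenchyme (0.72 ± 0.19, adjusted p = 0.0332), although its dimmer probe, detected on 0 of 3 WT arrays, did not (adjusted p = 0.0997), a comparison that gives only a bound of at least 1.22-fold higher. Srf had 0.31 ± 0.17 (adjusted p = 0.254) and Myocd 0.50 ± 0.22 (adjusted p = 0.153). Myocd read 6.74, 7.31 and 6.69 in WT and 7.64, 7.57 and 7.02 in KO, in which WT replicate 2 again lay above KO replicate 3. The Srf cofactor Mrtfb had -0.16 ± 0.16, Mrtfa was detected on 0 arrays, and the brightest regulator, Klf5, had 0.58 ± 0.24 (adjusted p = 0.128). Of 7 non-muscle actin and myosin genes 0 passed with limma and 0 had an unadjusted p under 0.05, with a median of 0.14. The main probe of Actb, the actin of all cells, had 0.14 ± 0.17, and its other 4 probes ranged from -1.13 to 0.66.

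Markers of other cells in the gut wall moved with the contractile genes in some lists and not in others, and their part in the result was not tested. In striated muscle 1 of 9 tested genes rose, the fast myosin Myh2 (0.79 ± 0.22, adjusted p = 0.0439; 2 of 3 WT arrays detected it). The brightest, Myl1, had -0.13 ± 0.27, and the other skeletal myosins Myh1 and Myh4 and the cardiac Myh7 were detected on 0 arrays. Acta1, the skeletal actin, read 4.96, 5.33 and 7.76 in WT and 6.68, 6.72 and 6.86 in KO, with the highest value on WT replicate 3, which was so for 0 of the 10 contractile genes. Of 2 tested genes of the pacemaker cells of Cajal and 11 of enteric neurons 0 passed with limma, with 0 under an unadjusted p of 0.05. The chloride channel Ano1 had 0.32 ± 0.16 and the neuropeptide Vip -0.10 ± 0.28. S100b, a marker of enteric glia, was detected on 0 arrays.

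Pericytes, which wrap small vessels and share contractile genes with muscle, had 3 of 7 genes higher: Rgs5 (6.86-fold, 2.78 ± 0.27), Mcam (1.99-fold, 0.99 ± 0.24) and Notch3, undetected in WT (0 of 3 arrays) and at least 1.35-fold higher in KO. The other Mcam probes gave 0.48 and 0.69 and did not pass. All 7 had positive differences, with a median of 0.45, but the pericyte markers Pdgfrb (0.06 ± 0.17, adjusted p = 0.829) and Cspg4 (0.27 ± 0.16, adjusted p = 0.262) did not pass. The summed intensity of the pericyte list was 407 to 576 on the WT arrays and 942 to 1211 on the KO arrays. Much of that gap came from Rgs5 alone, which read 6.50, 6.75 and 5.71 in WT and 9.30, 9.25 and 8.74 in KO. Endothelial genes were higher for 6 of 11 (735 to 974 against 1256 to 1616), namely Egfl7 (1.59 ± 0.17), Cldn5 (1.24 ± 0.20), Flt1 (1.02 ± 0.18), Eng (0.74 ± 0.17), Esam (0.73 ± 0.21) and Pecam1 (0.61 ± 0.16), while the brightest, Emcn, had 0.40 ± 0.24. A dim Egfl7 probe, detected on 3 arrays, overlapped between the groups (5.11, 4.67 and 4.58 in WT, 4.42, 4.51 and 4.90 in KO). Another Egfl7 probe had every KO array above every WT array. The second Pecam1 probe overlapped (5.56, 5.53 and 5.81 in WT, 5.53, 5.92 and 6.05 in KO). Fibroblast genes were higher for 5 of 15 (15136 to 18997 against 19630 to 20669), with Fbln2 at 1.31 ± 0.19, Col5a1 at 0.90 ± 0.18, Pi16 at 0.86 ± 0.25, Col6a1 at 0.80 ± 0.19 and Col1a2 at 0.77 ± 0.19. The brightest, Dcn, had 0.22 ± 0.14. In none of these 3 lists did the sums of WT and KO overlap, nor did the mean centred levels. The highest WT array and the lowest KO array were at -0.10 and 0.26 for pericytes, -0.16 and 0.26 for endothelium and 0.021 and 0.16 for fibroblasts. By the same measure the contractile genes were higher on WT replicate 2 (0.077) than on KO replicate 3 (0.020).

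Fat and leukocyte markers differed between the groups in other orders. Adipocyte genes were higher for 6 of 7, with summed intensities of 224 to 3004 in WT and 6069 to 18586 in KO, and Fabp4 was detected on 0 arrays. The differences were 4.32 ± 1.18 for Cfd, 3.83 ± 0.77 for Car3, 3.23 ± 0.84 for Adipoq, 2.72 ± 0.54 for Cidec, 2.02 ± 0.30 for Plin4 and 1.77 ± 0.28 for Lep. Their mean centred level was -0.09, -1.26 and -2.47 in WT and 1.04, 0.72 and 2.06 in KO. WT replicate 1, the lowest array for contractile genes, was thus the highest WT array for fat, and KO replicate 3, the lowest KO array for contractile genes, was the highest of all for fat. Leukocyte genes fell for 4 of 8, among them Cd79b (-2.65 ± 0.59), Cd3g (-1.63 ± 0.37) and Tyrobp (-1.32 ± 0.25), and the brightest, Lyz2, had -1.27 ± 0.37 (adjusted p = 0.0503). Leukocyte sums were 4335 to 12606 in WT and 3356 to 4480 in KO, which overlapped. Their mean centred level was 1.16, -0.07 and 0.63 in WT and -0.70, -0.76 and -0.27 in KO. From one end to the other the arrays stood in the reverse order to that of the contractile genes, except that WT replicate 2 and KO replicate 3 changed places.

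Epithelial genes kept nearly 1 level on all arrays as a list (median 0.021), with Krt18 higher (0.62 ± 0.17) and Vil1 (-1.15 ± 0.17) and Krt20 (-0.63 ± 0.13) lower. In a list of mesothelium, the outer lining of the gut, 4 genes were tested, with a median difference of -0.55. Their main probes were all detected on all 6 arrays, and whether outer wall was in the samples was not tested. Krt7, which epithelia also express, rose (0.83 ± 0.16), and the other 3 did not pass, with -0.60 ± 0.35 for Msln, -0.65 ± 0.46 for Upk3b and -0.50 ± 0.39 for Upk1b. The mean centred level of the 4 genes was 0.17, -0.16 and 0.33 in WT and -0.47, -0.61 and 0.74 in KO. KO replicate 3 was thus the highest array of this list and the other KO arrays were the lowest.

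**Figure D5:**
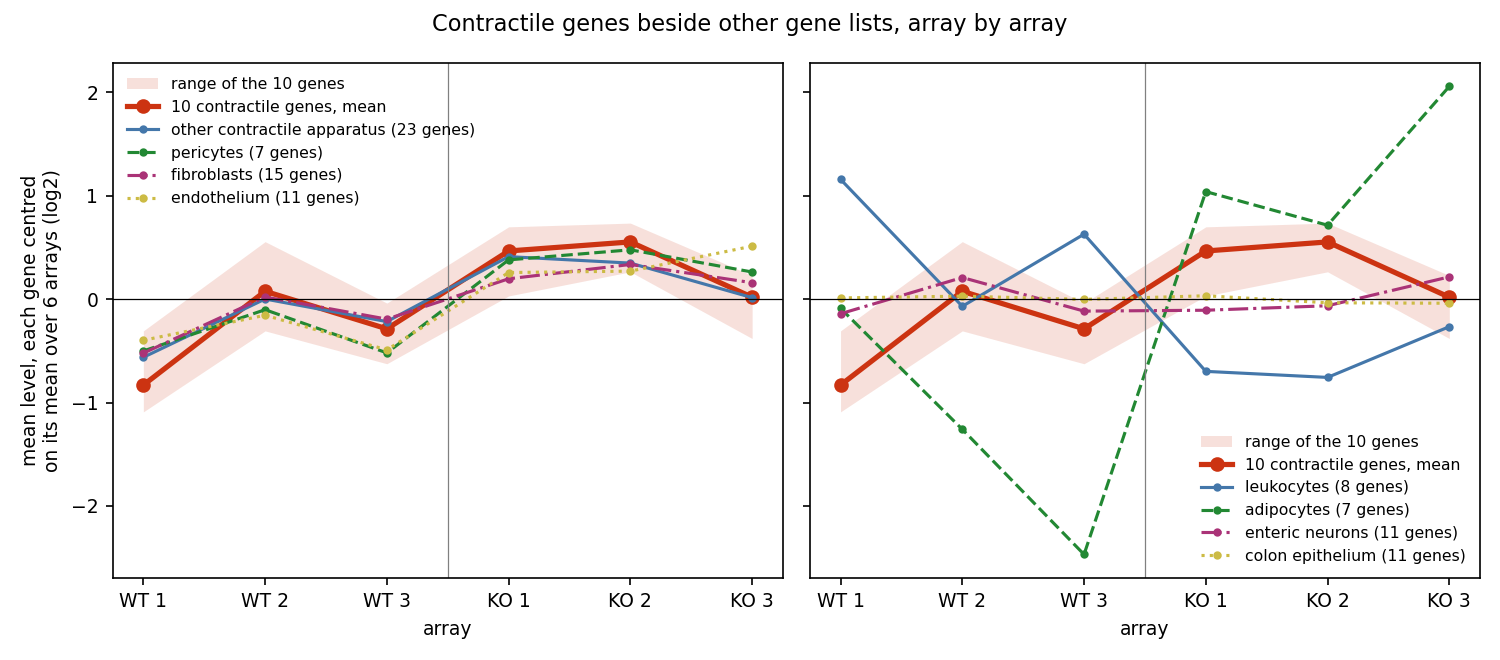
Mean level of gene lists on each array (log2, after subtracting the gene's own mean), with the 10 contractile genes as the thick red line and their range as the shaded band. Pericyte, fibroblast and other contractile genes run near the red line, though pericyte genes are lowest on WT replicate 3 (-0.52). Leukocyte genes run against the red line. Endothelial genes (0.51) and adipocyte genes peak on KO replicate 3, where the red line is at 0.020.

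The genes nearest to the common pattern were found by the root mean square distance between a gene's centred levels on the 6 arrays and the mean profile of the 10, over 10348 tested genes, where the median distance was 0.48. The 5 nearest genes outside the group were Itga1 (0.070), a collagen-binding integrin subunit, Rgs4 (0.079), a regulator of G protein signalling, the stress fibre protein Pdlim7 (0.080), the kinase Plk2 (0.086) and Popdc2 (0.094), a membrane protein of muscle. Their likeness includes the step between the groups, so their differences are given as a description: 0.63 for Itga1, 0.75 for Rgs4, 0.80 for Pdlim7, 0.57 for Plk2 and 0.67 for Popdc2. Of the 10 genes themselves Tagln (0.12) and Mylk (0.12) were nearest to their own mean, Myh11 (0.19) and Cnn1 (0.21) farther, and Lmod1 (0.40) farthest.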

How the data were processed

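Bead array intensities were deposited by the authors without normalization between arrays, as a mean over beads on a linear scale, with bead counts and standard errors and a detection p-value for each probe, per the file headers; the bead columns are in other units and served only to describe reading error. The authors also deposited log2 values normalized between arrays. Of tools, limma alone is named in the submitters' processing notes, without version or role. The scanning software is not given here. Set against the values computed here, the deposited log2 values had r of 0.9999 on each array and a median offset of 0.04, which settled scale and direction, and they were used as an alternative. A further 12 columns of the table (array number and array SD) were not used.

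Normalization used limma 3.58.1 under R 4.3.3, with statmod 1.5.0. Background was corrected by normexp with negative controls inferred from the deposited detection p-values, 16 was added, and arrays were quantile-normalized and put on a log2 scale. Probes detected (p under 0.05) on at least 3 of 6 arrays were fitted with lmFit and eBayes for KO against WT (two-sided). P-values were adjusted by Benjamini-Hochberg over every tested probe, with a threshold of 0.05. An exact permutation of 3 against 3 cannot go below 0.1. Where a group detected a probe on 0 arrays, the fold is a bound against the lowest detected level of each array. The fit was tested on simulated data for the 13737 probes: it called 72 percent of probes made to change by 1 log2 unit and 16 percent of those by 0.5. The simulated noise was independent between probes, and far fewer probes were made to change than passed in the real data. These shares therefore do not give the power of the real comparison.

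Medians of intensity were 97 to 115, and 50.4 to 54.6 percent of probes were detected per array. Arrays correlated at r = 0.981 to 0.990 within groups and 0.956 to 0.972 between them, across probes. The number of arrays limits the precision. Groups and replicate numbers came from the sample titles.

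Symbols in the gene lists were updated by Entrez ID (23788 probes) or accession (1148 probes) through RefSeq (GRCm38.p6); the 10 genes were matched on the deposited symbol. The files name no genome build, so coordinates are those of the RefSeq sequence tables. The 10 genes, the lists and the rule for naming genes were chosen with earlier results of these data known. The rule names all 10 genes, in each list the genes that passed (the 6 largest differences where more did) and the brightest gene, and the 5 nearest profiles; Acta1 and a few undetected, second or epithelial marker genes were added after their values were seen. Some marker genes that the rule names are not reported here.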

Additional observations from a re-analysis of the deposited data

How the results depend on the processing

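The 9 contractile genes with higher means in KO kept that direction in all 20 alternatives, and the median of the 10 stayed between 0.54 and 1.03. Which genes passed did not hold. The call of Cnn1 was kept in 15 of 20 and that of Csrp1 in 10. Of the 10 genes, 0 passed with median scaling, with all probes kept whatever their signal, and without the dimmest array of each group, leaving 4 (an alternative chosen after seeing the data), 1 passed with no background correction, an offset of 1 or the authors' deposited values, 9 passed with array weights, and 0 to 8 when an array was left out. Lmod1, never called, had 0.013 with median scaling, 0.17 with array weights, 0.023 on those 4 arrays and -0.22 to 0.21 with an array left out. Over all tested probes 536 passed with median scaling, 1223 with an offset of 1, 3772 with array weights, 510 on those 4 arrays and 491 to 2158 with an array left out. With the replicate number as a block 5 of the 10 passed. The titles pair the samples only by this number. Deviations of same-numbered samples correlated at 0.0069, 0.15 and 0.056, and not every sample correlated best with its own number. WT and KO replicate 3 were also alike in median intensity, at 97 and 98.3 against 108.2 to 115 on the other arrays. Whether they shared a run was not tested. The probes tested were kept the same when an array was left out. The cause of these changes was not tested, beyond the fewer arrays or more probes of some settings.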
